A study of Mus musculus with 27 samples.

Results

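The 43 genes described here encode the DNA replication machinery: the proteins that mark and license origins, the helicase, the clamp and its loader, the polymerases, the enzymes that supply deoxynucleotides and those that finish and package the new strand. They were chosen by gene name, and each matched 1 row of the deposited table of 55483 genes. All 43 passed the filter on low counts in every comparison. The cells were RAW264.7, an established mouse macrophage line that is transformed and proliferates in culture, so its replication genes are active without stimulation. They were kept for 6 h in DMSO (the solvent), in LPS at 1 µg/ml, which the labels give together with DMSO, or in LPS with TM7nox at 10 µM. LPS, or lipopolysaccharide, is a bacterial cell wall component that activates macrophages, and TM7nox is a small molecule of the tanshinone mimic series, which was designed to interfere with RNA binding by HuR. HuR is an RNA-binding protein encoded by Elavl1 that prefers stretches rich in U or in A and U. Among the samples analysed here none received TM7nox without LPS, so its values bear only on LPS-treated cells. For each treatment there were 4 total RNA libraries, 4 libraries of RNA pulled down by an antibody to HuR (RIP, or RNA immunoprecipitation) and 1 library pulled down by control IgG (each labelled replicate 3). Nothing in the labels says that the replicates came from separate cultures, so p-values measure the spread between these samples.

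Origins of replication are bound by the origin recognition complex, onto which Cdc6 and Cdt1 load the ring of Mcm proteins. Geminin, the product of Gmnn, holds Cdt1 in check after licensing. At the start of S phase, Cdc45 and the GINS complex join the ring to form the active CMG helicase, and the polymerases, the clamp PCNA and its loader RFC copy both strands. Many of these genes are classical targets of the E2F transcription factors and are transcribed at the transition from G1 to S phase, which is why their mRNAs are commonly read as a sign of proliferation. Activation of macrophages by LPS is known to arrest their growth.

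The RNA libraries held 2.73 to 28.3 M counts, the RIP libraries 19.8 to 41.4 M and the IgG libraries 8.87 to 24.5 M. RNA DMSO replicate 1 was the shallowest, at 2.73 M. Levels are in CPM, that is counts scaled to a common library size, on a single scale for all 27 libraries. The macrophage identity of the cells was checked with 8 markers, whose RNA levels summed to 4240 to 5695 CPM in DMSO. With LPS they summed to 3095 to 4760 CPM, and to 2271 to 4618 CPM when TM7nox was added. Lyz2 made up most of these sums, at 3026 to 4385 CPM in DMSO and 1896 to 3338 CPM in LPS. With LPS 4 of the 8 were called higher, Fcgr1 (3.06 on the log2 scale), Itgam, Ptprc and Adgre1, and Csf1r was called lower (-1.71). Of these 8, Mertk was at or near 0, at no more than 1.12 CPM. The 6 T and B cell markers summed to at most 0.285 CPM in any RNA library, and the 8 fibroblast and epithelial markers to at most 0.428 CPM, with Epcam and Krt8 at 0 counts in all 12. Mitochondrially encoded genes took 14.3 to 22.4% of RNA counts in DMSO. Their share was 12.1 to 17.9% with LPS and 15.9 to 19.4% with TM7nox as well. The part of that share in the results below was not tested.

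In total RNA, the replication genes were lower after LPS almost throughout. Their summed level was 2395, 2361, 2312 and 2398 CPM in the 4 DMSO libraries, 1374, 1134, 877 and 977 CPM in LPS, and 970, 989, 755 and 689 CPM in LPS+TM7nox. The DMSO libraries lay within a narrow band, and every LPS library was below all of them. The LPS+TM7nox libraries overlapped the LPS libraries, although each was lower than the LPS library with the same replicate number. As shares of all counts, the 43 genes took 0.333 to 0.414% in DMSO. That share was 0.106 to 0.185% with LPS and 0.0782 to 0.123% with LPS and TM7nox. In bulk RNA, fewer cells in S phase and less of these mRNAs per cell cannot be told apart.

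**Figure D1:**
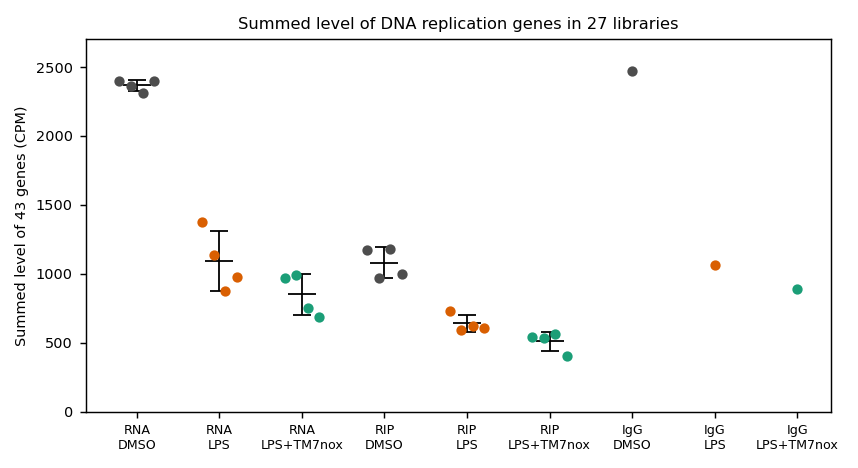
Summed level of the 43 replication genes (CPM, y axis) in each library, by assay and treatment (x axis). Points are libraries, and horizontal marks and bars are the mean ± SD of 4 libraries, with no error for the single IgG libraries. RNA DMSO libraries lie between 2312 and 2398 CPM, RNA LPS libraries between 877 and 1374 CPM, and RIP libraries lie below the RNA libraries of the same treatment.

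Of the 43 genes, 39 fell in LPS against DMSO and none rose, by edgeR's quasi-likelihood test at an adjusted p (FDR) under 0.05. No member was higher at an unadjusted p under 0.05 either, and DESeq2 called the same number, 39 lower and 0 higher. Among all 12369 genes tested, 21.7% were called lower. The median log2 fold change of the 43 was -1.16, against -0.04 over all genes, and 29 members were at -1 or below. For 38 of the 39, every LPS library was below every DMSO library, which held for 18.9% of all genes tested and for 80.3% of those called lower. The exception was Orc2, whose DMSO libraries ranged from 28.2 to 50.6 CPM and whose LPS libraries ranged from 27.2 to 29.1 CPM. By the roles of their products, 5 of 6 origin and licensing genes fell, 11 of 12 helicase genes, 5 of 6 clamp and loader genes, all 3 RPA genes, all 8 polymerase and primase genes, 1 of 2 Okazaki fragment genes, all 4 deoxynucleotide supply genes and both CAF-1 genes.

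**Figure D2:**
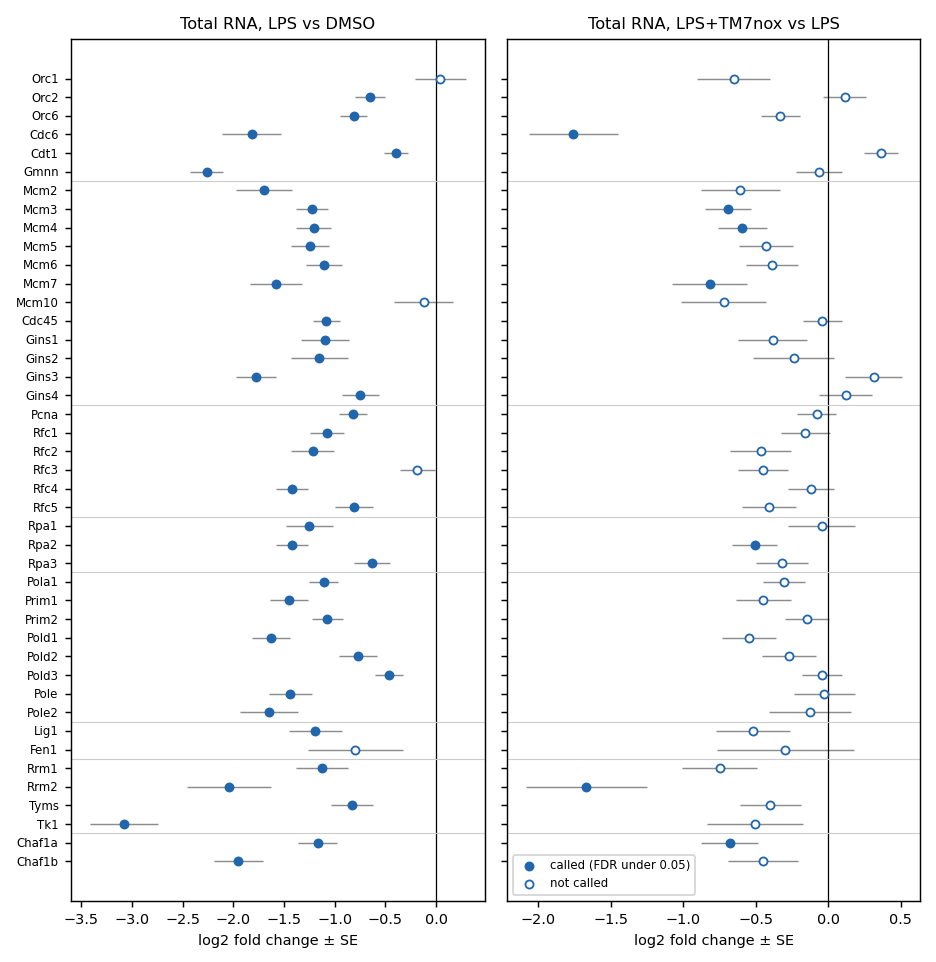
log2 fold change in total RNA (x axis) of each of the 43 genes (y axis, grouped by role), for LPS against DMSO on the left and LPS+TM7nox against LPS on the right. Bars are standard errors, filled points passed an FDR of 0.05 and open points did not. All but Orc1 lie below 0 on the left, where Tk1 is lowest at -3.08, and Cdc6 and Rrm2 are the lowest on the right.

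The deoxynucleotide supply genes had the lowest median of the roles, at -1.58 on the log2 scale. Tk1 encodes the cytosolic thymidine kinase, which salvages thymidine for DNA synthesis (chr11:117702770-117717042, minus strand, GRCm39). It stood at 27.98, 44.5, 38.8 and 45.7 CPM in DMSO and at 5.13, 7.22, 3.44 and 3.18 CPM in LPS. The groups were far apart, with the highest LPS library well under the lowest DMSO library. The log2 fold change was -3.08 ± 0.33 (SE, FDR 5.18e-06), or 8.47-fold lower, the largest fall among the 43. Rrm2 encodes the small subunit of ribonucleotide reductase, which makes deoxynucleotides from ribonucleotides (chr12:24757811-24764145, plus strand). It stood at 147, 106, 96.00 and 84.7 CPM in DMSO and at 48.03, 26.3, 14.8 and 18.3 CPM in LPS. Replicate 1 was the highest library in each of these groups, and no LPS library reached the DMSO range. Rrm2 fell by 2.04 ± 0.41 on the log2 scale (SE, FDR 0.00116). Of the exon bases of Rrm2, 43.3% overlap Gm59512 on the other strand, and whether counting used the strand is not given in the sources used here. Rrm1, the large subunit, fell by 1.12 (FDR 0.00295), and Tyms, which encodes thymidylate synthase, by 0.83 (FDR 0.00545). The table also holds a row for a pseudogene of Tyms, which could share reads with it.

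Among the licensing genes, Gmnn and Cdc6 changed most, and the other 4 were at -0.81 or above on the log2 scale. Gmnn encodes geminin (chr13:24935812-24946084, minus strand). It stood at 33.3, 38.5, 35.2 and 38.2 CPM in DMSO and at 7.83, 8.41, 6.22 and 8.45 CPM in LPS. The libraries of each group were close to each other and the groups did not overlap. It fell by 2.26 ± 0.16 on the log2 scale (SE, FDR 9.07e-08), which is 4.80-fold lower and had the smallest FDR of the 43. Some 20.8% of its exon bases overlap Gm56584 on the other strand. Cdc6, the ATPase that loads the Mcm ring, ranged from 20.4 to 26.9 CPM in DMSO and from 4.35 to 12.02 CPM in LPS, where replicate 1 was the high library, and fell by 1.82 ± 0.29 on the log2 scale (SE, FDR 0.000173). Cdt1, its partner in loading, fell by only 0.40 (FDR 0.0138), from 62.2 ± 2.25 to 48.4 ± 6.73 CPM (SD, n = 4 each), and its call was lost without RNA LPS replicate 2 (FDR 0.0501), without the low-count filter (0.173) and in replicates 1 and 2 or 3 and 4 alone (0.135 and 0.104). Orc6 and Orc2, subunits of the origin recognition complex, fell by 0.81 and 0.65 (FDR 0.000202 and 0.00256). Orc1, the subunit whose level is known to vary through the cell cycle, was not called. It ranged from 4.34 to 5.05 CPM in DMSO and from 4.49 to 5.09 CPM in LPS, so the groups overlapped almost fully. Its value was 0.04 ± 0.25 on the log2 scale (SE, FDR 0.912).

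The 6 subunits of the Mcm ring fell together. Mcm2, a core subunit, had the largest change of the 6, at -1.70 ± 0.28 on the log2 scale (SE, FDR 0.000193), with 107 to 157 CPM in DMSO and 25.01 to 64.1 CPM in LPS. Mcm7 followed at -1.58 ± 0.26 (SE, FDR 0.000207), and Mcm3, Mcm4, Mcm5 and Mcm6 lay between -1.24 and -1.11. Mcm7 hosts Mir25, Mir93 and Mir106b on its own strand. Of the partners that turn the ring into the active helicase, Gins3 fell most, by 1.77 ± 0.20 (SE, FDR 6.48e-06), while Cdc45, Gins1 and Gins2 fell by 1.08, 1.10 and 1.16 and Gins4 by 0.75. Gins2 shares 67.3% of its exon bases with Gse1 on the other strand, which may have raised or lowered its counts. Mcm10, which acts as the helicase is activated, was the 1 member of this role that was not called, at -0.12 ± 0.29 (SE, FDR 0.775). Its DMSO libraries ranged from 40.96 to 69.1 CPM and its LPS libraries from 29.7 to 69.3 CPM, with replicate 1 the highest in both.

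Pcna encodes the sliding clamp that tethers polymerases to DNA (chr2:132091082-132095234, minus strand). It went from 141 ± 18.9 CPM in DMSO to 81.8 ± 5.37 CPM in LPS (SD, n = 4 each), or -0.82 on the log2 scale (FDR 0.000207). That fall was smaller in size than the median of the 43, and the table also holds rows for a pair of Pcna pseudogenes that could share reads with it. Of the RFC clamp loader, the subunits Rfc1, Rfc2, Rfc4 and Rfc5 fell, by 0.81 for Rfc5 up to 1.42 for Rfc4. Of the exon bases of Rfc5, 41.4% overlap Wsb2 on the other strand, those of Rfc4 overlap Eif4a2 and 6330408M09Rik for 29%, and those of Rfc2 overlap Lat2 for 24.3%. Rfc3 was not called, at -0.19 ± 0.17 (SE, FDR 0.431), with 11.02 to 14.8 CPM in DMSO and 10.8 to 14.2 CPM in LPS. The subunits of RPA, which coats single-stranded DNA, fell by 1.42 for Rpa2, 1.25 for Rpa1 and 0.63 for Rpa3. The call for Rpa3 was lost without RNA DMSO replicate 4 (FDR 0.0566), without the low-count filter (0.0845) and in replicates 1 and 2 alone (0.401).

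All 8 polymerase and primase genes fell. Pole2, an accessory subunit of polymerase epsilon, changed by -1.65 ± 0.28 (SE, FDR 0.000327) and Pold1, the catalytic subunit of polymerase delta, by -1.63 ± 0.19 (SE, FDR 8.39e-06). Prim1, the catalytic primase subunit, and Pole, the catalytic subunit of polymerase epsilon, were at -1.45 and -1.44, and Pola1, the catalytic subunit of polymerase alpha, and Prim2, the large primase subunit, at -1.11 and -1.07. The accessory subunits of polymerase delta changed least, with Pold2 at -0.77 and Pold3 at -0.47 (FDR 0.00449 and 0.0148). Lig1, the ligase that seals Okazaki fragments, fell by 1.19 (FDR 0.00189). Fen1, the flap endonuclease of the same step, was not called, at -0.80 ± 0.47 (SE, FDR 0.196), and rested on 9 to 101 counts per RNA library. Of its exon bases, 65.9% overlap Tmem258 and Gm10143 on the other strand. Chaf1b and Chaf1a, subunits of the histone chaperone CAF-1 that packages new DNA, fell by 1.95 ± 0.24 (SE, FDR 1.84e-05) and 1.17 (FDR 0.000232). Chaf1a shares 51% of its exon bases with Ubxn6 and Gm65040 on the other strand.

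**Figure D3:**
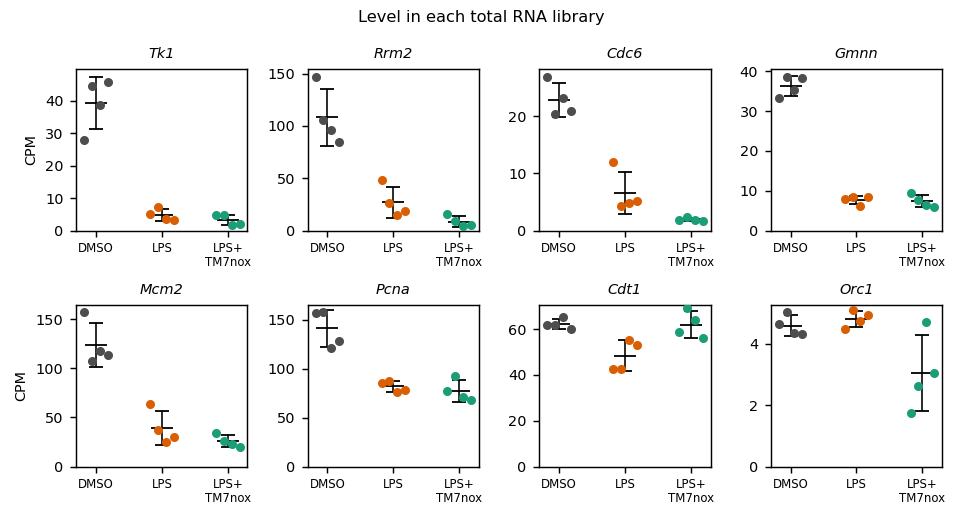
Level (CPM, y axis, from 0) of 8 replication genes in the 12 total RNA libraries by treatment (x axis). Points are libraries and horizontal marks with bars are the mean ± SD of 4. Tk1, Rrm2, Cdc6, Gmnn, Mcm2 and Pcna show no overlap of DMSO and LPS, while the Orc1 libraries of these groups overlap and Cdt1 in LPS+TM7nox lies close to DMSO.

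The number of calls differed between pairs of replicates, for the members and for all genes. Within replicates 1 and 2 alone, 22 members were called lower in LPS and the median was -0.89, and 13.4% of all genes were called in either direction. Within replicates 3 and 4 alone 39 members were called, with a median of -1.42, and 58.7% of all genes. Cdt1 was not among them, and Mcm10 was, at -0.35 (FDR 0.0145). The difference between these pairs of replicates was not tested. Without RNA DMSO replicate 1, the shallow library, 39 were called. Tk1, Gmnn and Rrm2 were called lower under all 14 alternative settings tried.

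Other genes of the same pathways, taken from lists of known function, were counted for comparison. Among all genes tested, 21.7% were called lower with LPS and 20.2% higher. Of 36 other replication genes, 35 were tested, of which 23 fell and 2 rose. Those with the largest falls were Wdhd1, a replisome hub protein, at -2.84 on the log2 scale, Clspn, a fork and checkpoint adaptor, at -2.28, the helicase gene Recql4 at -2.14 and the nuclease gene Dna2 at -2.09. Of 11 other deoxynucleotide genes, 5 fell and 1 rose. The riser was Samhd1, which encodes a triphosphohydrolase that degrades deoxynucleotides, at 2.35 (FDR 2.35e-08), and Dut and Dctd, which act in thymidylate synthesis, were at -1.50 and -1.12. Of 13 genes for E2F factors, their DP partners and pocket proteins, 10 fell and none rose, with E2f8 at -2.87, E2f2 at -2.84, Tfdp2 at -2.64 and Rbl2 at -2.33. Of 9 replication checkpoint genes 2 fell, Wee1 at -2.31 and Chek1 at -1.68, a share of 22.2% that is near that of all genes.

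Many of these genes are known E2F targets, so the stretches around their starts were searched for letters of the E2F type. RefSeq promoter windows on GRCm38.p6, from 250 bases before to 50 after a start, were at hand for 35 of the 43 genes in 41 windows. Searched on both strands, TTTCCCGC, TTTGGCGC, TTTGCCGC or TTTCGCGC was found in 14 of 41 windows (34.1%), against 2.26% of 32851 windows of all genes. These letters can overlap each other, and in Mcm3, Lig1, Pold1, Pold3, Cdt1 and Pole2 they were found only after the start. CCAAT was in 61% of the members' windows against 37.4% of all, and TTTGAA, the core letters of the CHR element of cell-cycle genes, in 12.2% against 17.9%. The 250 bases before the start are given for 5 genes that show the range of cases. Mcm6, Mcm5 and Cdc6 fell and hold the letters, Orc1 holds them and was not called, and Tk1 fell most and holds none in this window. Capitals mark the E2F-type letters on either strand, read 5′ to 3′ along the gene.
Mcm6 (chr1:128359706-128359955, minus strand): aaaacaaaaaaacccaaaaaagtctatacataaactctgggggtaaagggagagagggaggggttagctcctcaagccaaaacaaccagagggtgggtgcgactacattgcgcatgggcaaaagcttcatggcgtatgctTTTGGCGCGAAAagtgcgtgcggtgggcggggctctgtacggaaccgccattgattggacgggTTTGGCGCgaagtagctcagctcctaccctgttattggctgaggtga
Mcm5 (chr8:75109259-75109508, plus strand): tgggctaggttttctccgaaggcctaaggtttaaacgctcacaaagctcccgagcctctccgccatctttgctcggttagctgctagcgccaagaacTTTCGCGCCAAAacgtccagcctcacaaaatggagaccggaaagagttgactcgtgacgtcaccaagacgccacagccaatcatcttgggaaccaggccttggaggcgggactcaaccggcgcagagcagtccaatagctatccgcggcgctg
Cdc6 (chr11:98907901-98908150, plus strand): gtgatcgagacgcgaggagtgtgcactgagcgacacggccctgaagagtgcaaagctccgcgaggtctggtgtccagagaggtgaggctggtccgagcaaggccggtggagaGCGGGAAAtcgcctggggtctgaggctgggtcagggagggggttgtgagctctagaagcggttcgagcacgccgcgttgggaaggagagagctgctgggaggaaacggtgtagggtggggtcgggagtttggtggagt
Orc1 (chr4:108579204-108579453, plus strand): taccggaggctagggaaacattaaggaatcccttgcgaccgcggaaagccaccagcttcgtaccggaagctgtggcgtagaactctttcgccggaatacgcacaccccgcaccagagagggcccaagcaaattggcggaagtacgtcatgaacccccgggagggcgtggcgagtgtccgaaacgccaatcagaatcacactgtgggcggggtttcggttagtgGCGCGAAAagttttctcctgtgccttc
Tk1 (chr11:117826015-117826264, minus strand): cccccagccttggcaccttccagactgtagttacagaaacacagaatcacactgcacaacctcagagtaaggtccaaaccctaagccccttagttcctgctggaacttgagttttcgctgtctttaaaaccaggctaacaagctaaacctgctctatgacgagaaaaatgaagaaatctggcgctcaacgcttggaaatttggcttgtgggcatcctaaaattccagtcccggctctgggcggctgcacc
In Mcm6 the matches begin 110, 106 and 47 bases before the start and the first pair overlap, and in Mcm5 the overlapping matches begin at 153 and 149. The Cdc6 and Orc1 matches begin 138 and 27 bases before the start. The 14 genes with the letters had a median log2 fold change in LPS of -1.21, with 12 called lower, and the 21 without had a median of -1.08, with 19 called lower. A match is a run of letters and not evidence of binding.

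Per kilobase of exon, levels could be set beside each other across genes. In RNA from DMSO, Pcna was highest at 58.8 CPM per kb, followed by Mcm6 at 34.02, Rrm2 at 32.6, Mcm3 at 27.2 and Lig1 at 25.8. Fen1 and Orc1 were lowest, at 0.742 and 0.8 CPM per kb, although 65.9% of the exon bases of Fen1 overlap other genes. In LPS, Pcna stood at 34.1 and Mcm6 at 16.1 CPM per kb, while Rrm2 was at 8.09.

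TM7nox in the presence of LPS was compared with LPS alone in the same assay. In total RNA 7 of the 43 genes were called lower and none higher in edgeR, where Cdt1 alone was higher at an unadjusted p under 0.05 and DESeq2 called it. Among all genes, 6.4% were called lower. The median of the 43 was -0.39 on the log2 scale, against -0.00 over all genes, and 39 of 43 had a negative sign. The genes called were Cdc6, Rrm2, Mcm7, Mcm3, Chaf1a, Mcm4 and Rpa2. The same-numbered libraries of the treatments deviated together, and with the replicate number as a block the fit called 15, of which 14 were lower and Cdt1 was higher. That fit called 25% of all genes in either direction.

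Cdc6 had the largest change. It stood at 12.02, 4.35, 4.81 and 5.24 CPM in LPS and at 1.85, 2.35, 1.87 and 1.70 CPM in LPS+TM7nox. Every LPS+TM7nox library was below every LPS library. The log2 fold change was -1.76 ± 0.31 (SE, FDR 0.00164), and without RNA LPS replicate 1, the high library, it was -1.29. Rrm2 stood at 15.5, 8.92, 4.46 and 5.14 CPM in LPS+TM7nox, against the LPS values given above. The highest LPS+TM7nox library slightly exceeded the lowest LPS library, although within each replicate number TM7nox was lower. Its log2 fold change was -1.67 ± 0.42 (SE, FDR 0.0161), and the FDR was above 0.05 without RNA LPS replicate 1 (0.0509), RNA LPS+TM7nox replicate 3 (0.0508) or RNA LPS+TM7nox replicate 4 (0.053). Mcm7 stood at 48.5, 37.4, 24.8 and 29.5 CPM in LPS and at 25.8, 26.3, 13.9 and 13.4 CPM in LPS+TM7nox. The LPS+TM7nox libraries of replicates 1 and 2 lay just above the lowest LPS library, and the log2 fold change was -0.82 ± 0.26 (SE, FDR 0.0476). Mcm3 and Mcm4 fell by 0.69 ± 0.16 and 0.59 ± 0.17 (SE, FDR 0.00972 and 0.0343), Chaf1a by 0.68 ± 0.19 (SE, FDR 0.0307) and Rpa2 by 0.51 ± 0.16 (SE, FDR 0.0431). Cdc6 and Mcm3 were called in each of the 8 fits that left out a single library. Mcm7 and Chaf1a lost their calls without RNA LPS replicate 1, 2 or 4 or RNA LPS+TM7nox replicate 3 or 4, with FDRs of up to 0.144 for Mcm7 and 0.0909 for Chaf1a. Mcm4 and Rpa2 lost theirs without 5 and 6 of the 8 libraries, with FDRs of up to 0.108 and 0.134.

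The other members were not called between these treatments in the fit without the block. With it 5 more members of the helicase, Okazaki fragment and deoxynucleotide roles were called lower, Rrm1 at -0.77 (FDR 0.00329), Mcm10 at -0.68 (FDR 0.00572), Mcm2 at -0.55 (FDR 0.012), Lig1 at -0.49 (FDR 0.0218) and Mcm5 at -0.43 (FDR 0.042). Rrm1 was also called by DESeq2 (FDR 0.0263) and without RNA LPS+TM7nox replicate 1 (0.0302) or RNA LPS replicate 3 (0.0425), and Orc1 was called lower without RNA LPS+TM7nox replicate 3 (FDR 0.0223). Tk1, Gmnn and Pcna, which had fallen with LPS, were at -0.50, -0.07 and -0.08 on the log2 scale and were not called (FDR 0.376, 0.847 and 0.766), although Tk1 was in replicates 3 and 4 alone (FDR 0.0105). None of the 6 clamp and loader genes and none of the 8 polymerase and primase genes was called. With the block Rfc5 and Pold1, at -0.41 and -0.55 without it, were called lower (FDR 0.0355 and 0.0356), and both were lower in 4 of 4 pairs of the same replicate number. Pold1 was also called by DESeq2 (FDR 0.028) and without RNA LPS replicate 3 (FDR 0.0367). Of the same roles, Rfc2 was called lower without RNA LPS+TM7nox replicate 1 (FDR 0.0209) and Pola1 without RNA LPS+TM7nox replicate 2 (FDR 0.0469), and in replicates 3 and 4 alone Rfc2, Rfc3, Rfc5, Pola1, Pold1 and Pold2 were called lower. Cdt1 had the highest value of the 43, at 0.36 ± 0.12 (SE, FDR 0.0547), with 42.5 to 55.3 CPM in LPS and 56.1 to 69.01 CPM in LPS+TM7nox. It was higher with TM7nox in all 4 replicate numbers and was called with the replicate block (FDR 0.0209), by DESeq2 (FDR 0.0348) and without RNA LPS replicate 3 (FDR 0.0443).

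The count of 7 genes depended on single libraries. It was 2 without RNA LPS replicate 1, 3 without RNA LPS replicate 2, 4 without RNA LPS replicate 4, 3 without RNA LPS+TM7nox replicate 3 and 2 without RNA LPS+TM7nox replicate 4. In these 5 fits 4.74, 4.41, 4.88, 4.12 and 3.95% of all genes were called lower, so 2 of 43 members is close to the share of all genes. Replicates 1 and 2 alone gave no call, with 12 members at an unadjusted p under 0.05 in edgeR, where 1.35% of all genes were called in either direction. The share of all genes at that unadjusted p was not counted. Replicates 3 and 4 alone gave 22, of which 21 were lower and Gins3 was higher, where 27.9% of all genes were called. DESeq2 on all libraries called 10, against 18.5% of all genes.

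Against DMSO, LPS with TM7nox gave lower RNA for 40 of the 43 genes and higher for none, against 23.6% of all genes called lower. The median was -1.47 on the log2 scale and 34 members were at -1 or below. Rrm2, Cdc6 and Tk1 were lowest, at -3.71 ± 0.45, -3.58 ± 0.32 and -3.58 ± 0.35 (SE, FDR 1.15e-05, 7.08e-07 and 1.44e-06). Orc1, Cdt1 and Fen1 were not called, but with the replicate block 42 members were, Orc1 (-0.62, FDR 0.0484) and Fen1 (-1.23, FDR 0.0373) among them, and 58% of all genes in either direction. Orc1 was also called without RNA LPS+TM7nox replicate 3 (FDR 0.00801) and Fen1 without RNA LPS+TM7nox replicate 4 (FDR 0.0341). Cdt1 was at -0.04 ± 0.12 (SE, FDR 0.825), the value nearest 0. This comparison shares its LPS+TM7nox libraries and its DMSO libraries with those above.

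RNA recovered with the anti-HuR antibody gave the same direction. Of the 43 genes, 32 were lower in RIP from LPS than in RIP from DMSO and none was higher, also at an unadjusted p under 0.05 or by DESeq2, against 21.2% of all 13614 genes called lower. The median was -0.72 on the log2 scale, and 14 members were at -1 or below. Tk1 stood at 24.6, 22.6, 20.7 and 21.8 CPM in RIP from DMSO and at 6.01, 4.52, 1.97 and 4.46 CPM in RIP from LPS. The groups were well apart, and the log2 fold change was -2.41 ± 0.30 (SE, FDR 9.3e-06). Gmnn went from 34.6, 21.6, 33.3 and 24.8 CPM to 10.6, 4.83, 6.11 and 4.52 CPM. Its libraries did not overlap either, at -2.13 ± 0.33 (SE, FDR 7.53e-05). Rrm2 went from 160.2, 135, 145 and 94.04 CPM to 53.6, 40.7, 25.4 and 17.4 CPM, at -1.97 ± 0.37 (SE, FDR 0.000444). Cdc6, Chaf1b, Pole2 and Prim1 followed at -1.78, -1.56, -1.49 and -1.39. Cdt1, at 0.42 ± 0.20 (SE, FDR 0.107), and Rfc3, at 0.31 ± 0.25 (SE, FDR 0.329), had the highest values and were not called. Within replicates 1 and 2 alone, 20 members were called, all lower, against 24% of all genes in either direction. Within replicates 3 and 4 alone 28 were called, against 40.7% of all genes, of which 27 were lower and Cdt1 was higher, at 0.70 (FDR 0.0206).

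Of the 39 members called lower in RNA and the 32 called lower in RIP, 31 were the same, which is 79.5% of the RNA list and 96.9% of the RIP list. Over all genes tested in both assays the shares were 66.5 and 73.2%, and 15% of all genes were lower in both. Fen1 was called lower in RIP and not in RNA, at -1.01 ± 0.38 on the log2 scale in RIP (SE, FDR 0.0381), with overlapping groups. That call was lost without RIP DMSO replicate 1 (FDR 0.192) or RIP LPS replicate 2 (0.0814), 3 (0.0696) or 4 (0.0654), and in replicates 1 and 2 or 3 and 4 alone (0.0531 and 0.298). The change in LPS was more negative in RNA than in RIP for 40 of the 43 when the assays were fitted and scaled separately. In the joint fit that tests this difference, given at the end, 36 of the 43 lay that way and no single gene was called. Across the 43 genes the changes in RNA and in RIP had a Pearson's r of 0.904 and a Spearman's rho of 0.847. That correlation is a description over 43 genes, which are not independent and come from libraries whose replicate numbers pair them. In the 3 IgG libraries, which have no replicates and allow no test, all 43 members were lower in LPS than in DMSO, with a median log2 ratio of -1.24. That sets 1 library against 1, and the share of all genes lower in this pair was not counted.

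**Figure D4:**
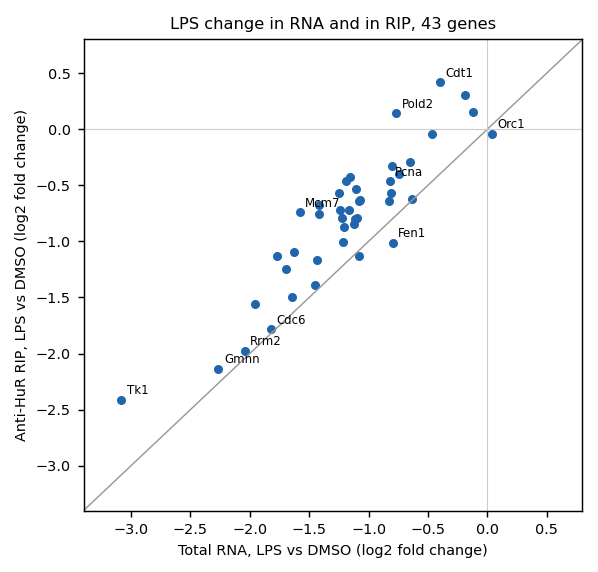
log2 fold change of LPS against DMSO in total RNA (x axis) and in anti-HuR RIP (y axis), 1 point per replication gene, with the line of equal change. Tk1, Gmnn and Rrm2 are the 3 lowest in both, and 40 of 43 points lie above the line.

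With TM7nox added to LPS, 13 of the 43 genes were lower in RIP and none was higher, also at an unadjusted p under 0.05 or by DESeq2, against 7.61% of all genes called lower. The median was -0.39. The fit with the replicate number as a block called 20, all lower, and 33.6% of all genes in either direction. Rrm2 stood at 53.6, 40.7, 25.4 and 17.4 CPM in RIP from LPS and at 22.1, 19.8, 8.67 and 7.65 CPM in RIP from LPS+TM7nox, with each same-numbered pair lower. The log2 fold change was -1.28 ± 0.37 (SE, FDR 0.026), and the call was lost without RIP LPS replicate 1 or 2 or RIP LPS+TM7nox replicate 3 or 4 (FDR up to 0.107). Tk1 stood at 3.23, 2.17, 1.44 and 1.44 CPM in LPS+TM7nox and changed by -1.07 ± 0.32 (SE, FDR 0.0311), a call that was lost in 6 of the 8 fits without a single library (FDR up to 0.124). Mcm7 stood at 19.2, 16.1, 17.7 and 20.9 CPM in LPS and at 12.3, 10.6, 8.23 and 8.01 CPM in LPS+TM7nox, with no overlap. It changed by -0.96 ± 0.18 (SE, FDR 0.00243). All 4 deoxynucleotide supply genes were called, with Rrm1 at -0.72 and Tyms at -0.71. The others were Pold2 at -0.93, Cdc6 at -0.92, Rfc3 at -0.91, Chaf1a at -0.90, Mcm10 at -0.83, Rpa2 at -0.83, Rfc5 at -0.70 and Lig1 at -0.57. Mcm7, Mcm10 and Pold2 were called in each of the 8 fits that left out a single library. The count was 4 without RIP LPS replicate 1 or without RIP LPS+TM7nox replicate 4, whose summed level of 403 CPM was the lowest of its group, 7 without RIP LPS+TM7nox replicate 2, and 8 without RIP LPS replicate 4 or without RIP LPS+TM7nox replicate 3. In these 5 fits, taken in that order, 4.70, 5.20, 4.87, 5.15 and 6.54% of all genes were called lower. Replicates 1 and 2 alone gave 1 call and replicates 3 and 4 alone gave 4, where 5.59% and 7.87% of all genes were called.

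Against RIP from DMSO, 38 of the 43 were lower with LPS and TM7nox, against 23.1% of all genes, and 1 was higher, against 25.1%. The median was -1.10 on the log2 scale. Tk1, Rrm2 and Cdc6 were lowest, at -3.48 ± 0.32, -3.26 ± 0.39 and -2.70 ± 0.28 (SE, FDR 3.94e-07, 5.87e-06 and 1.12e-06). The gene that rose was Cdt1. It stood at 23.1, 18.2, 19.2 and 20.5 CPM in RIP from DMSO and at 23.7, 30.5, 38.7 and 33.1 CPM in RIP from LPS+TM7nox. Every LPS+TM7nox library was above every DMSO library, and the log2 fold change was 0.57 ± 0.20 (SE, FDR 0.0305). The call was lost without RIP DMSO replicate 2, 3 or 4 or RIP LPS+TM7nox replicate 3 or 4, with FDRs of up to 0.0926.

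The anti-HuR antibody recovered most of these mRNAs less than the typical gene. RIP over RNA, the log2 fold change of RIP against RNA in the same treatment, is relative to the typical gene because each assay is scaled to its own composition. In DMSO, 35 of the 43 members were lower in RIP and 2 were higher, against 33.4% of all genes lower and 37% higher, with a median of -1.19. In LPS, 33 were lower and 2 higher, against 30.8% and 32.9%, with a median of -0.91. In LPS+TM7nox, 32 were lower and 2 higher, against 34.8% and 35.2%, with a median of -1.01. Lower in all 3 treatments at once were 31 members, against 27% of all genes, and the 2 higher genes were Orc6 and Rpa3 in each treatment, where 30.1% of all genes were higher in all 3. All 12 helicase genes were lower in each treatment. Another scaling of the libraries moved the median of all genes by over 0.1, from 0.04 to 0.19 in DMSO, from -0.06 to 0.11 in LPS and from -0.09 to 0.13 in LPS+TM7nox, and 33, 31 and 29 members were then lower, against 29.9, 25.8 and 29.5% of all genes.

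Rpa3 encodes the small subunit of RPA (chr6:8255929-8259173, minus strand). In DMSO it stood at 8.69, 9.68, 8.11 and 12.7 CPM in RNA and at 54.01, 48.1, 71.3 and 54.8 CPM in RIP. All RIP libraries were far above all RNA libraries. The log2 difference was 2.63 ± 0.19 (SE, FDR 9.65e-12), or 6.19-fold, and it was 2.53 in LPS and 2.63 in LPS+TM7nox. The other RPA subunits, Rpa1 and Rpa2, lay on the other side, at -1.34 and -1.61 in DMSO. Orc6 (chr8:86026219-86034912, plus strand) stood at 18.02, 24.8, 21.04 and 21.1 CPM in RNA and at 86.3, 80.9, 97.7 and 68.3 CPM in RIP. It too showed no overlap, at 2.07 ± 0.19 in DMSO (SE, FDR 8.05e-10), 2.20 in LPS and 2.59 in LPS+TM7nox, while Orc1 and Orc2 were at -0.30 and -0.84 in DMSO. Fen1, on few counts, and Rrm2 came next in DMSO, at 0.73 ± 0.43 and 0.44 ± 0.38 (SE, FDR 0.13 and 0.303), and were not called. With the replicate number as a block Rrm2 was called higher in DMSO (FDR 0.0389) and in LPS+TM7nox (FDR 0.00118). In LPS+TM7nox, where it was at 0.80 ± 0.40 (SE, FDR 0.0731), it was also called without RNA LPS+TM7nox replicate 1 (0.014) and without RIP LPS+TM7nox replicate 3 (0.0462) or 4 (0.0424).

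At the other end were Rfc4, Mcm6 and Lig1. Rfc4, a clamp loader subunit, stood at 19.9, 19.2, 17.7 and 18.8 CPM in RNA and 4.77, 4.23, 4.34 and 3.42 CPM in RIP from DMSO, a difference of -2.05 ± 0.19 (SE, FDR 5.12e-10). Mcm6 stood at 157, 197, 192 and 194 CPM in RNA and 49.3, 35.99, 44.4 and 38.2 CPM in RIP, a difference of -2.03 ± 0.21 (SE, FDR 3.81e-09). Lig1 stood at 136, 116, 92.8 and 122 CPM in RNA and 26.7, 22.99, 26.6 and 28.4 CPM in RIP, a difference of -2.03 ± 0.21 (SE, FDR 4.06e-09). For all 3 the RIP libraries were below every RNA library. Mcm3, Pcna, Pold2, Rfc3, Pold1 and Mcm5 came next, between -1.99 and -1.73.

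Most members were also lower than with the control antibody, in a comparison that uses the same RIP libraries. Against IgG, with treatment as a covariate, 36 of the 43 genes were lower in anti-HuR RIP and 3 were higher, against 34.2% and 33.8% of all 14973 genes, and the median was -1.11. Rpa3 was at 3.33 ± 0.22 (SE, FDR 1.47e-10), Orc6 at 2.19 ± 0.23 (SE, FDR 7.3e-08) and Rrm2 at 0.94 ± 0.33 (SE, FDR 0.0175). In the IgG libraries from DMSO, LPS and LPS+TM7nox, Rpa3 stood at 5.40, 3.68 and 3.35 CPM, Orc6 at 23.2, 11.7 and 9.98 CPM, and Rrm2 at 83.8, 15.7 and 6.80 CPM. Rpa3 and Orc6 were higher in every RIP library than in any IgG library, and for Rrm2 this held within each treatment. The Rrm2 call was lost without the IgG library from LPS (FDR 0.0789) and without that from LPS+TM7nox (FDR 0.0831). Mcm3, Pold1 and Rfc3 were lowest, at -2.27 ± 0.14, -1.87 ± 0.17 and -1.87 ± 0.19 (SE, FDR 1.2e-10, 1.23e-08 and 3.34e-08). With 1 IgG library per treatment, the spread between IgG libraries is known only across treatments. All 3 are replicate 3, and within replicate 3 alone 36 members were lower and 3 higher, against 35.6% and 33.6% of all genes in that fit.

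**Figure D5:**
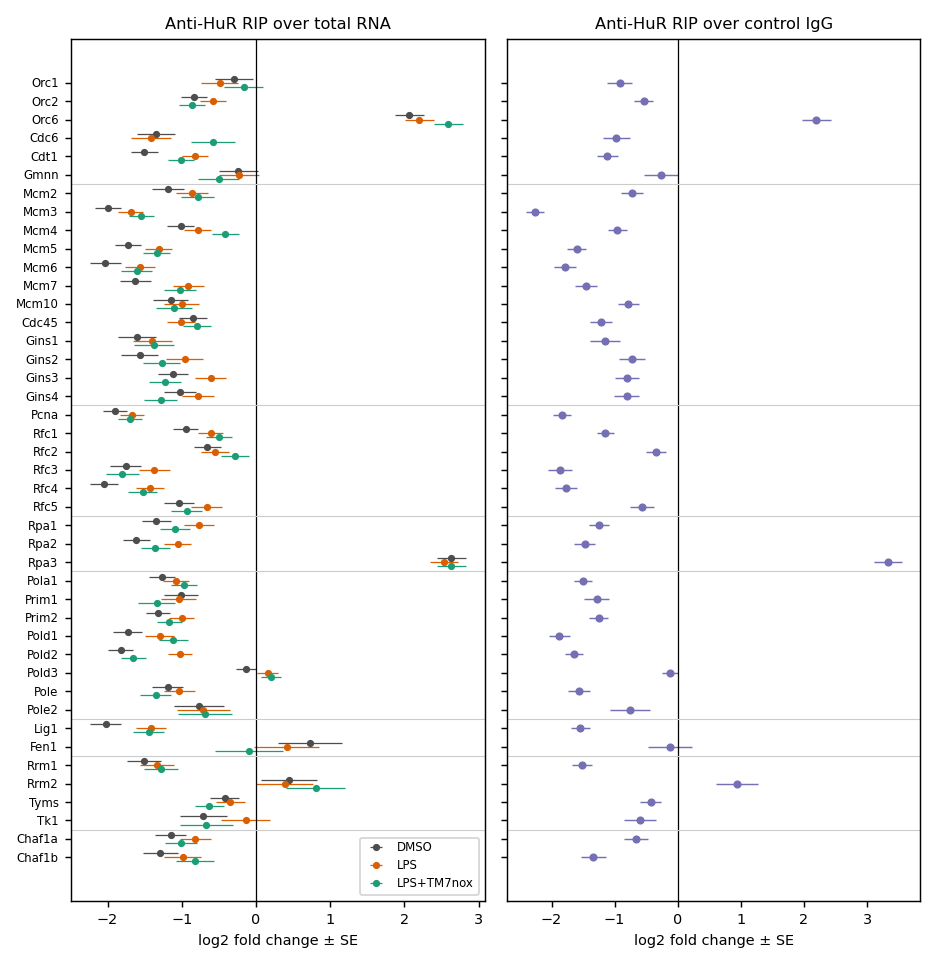
log2 fold change ± SE of anti-HuR RIP over total RNA in each treatment (left, x axis) and of anti-HuR RIP over control IgG (right, x axis) for the 43 genes (y axis, grouped by role). Orc6 and Rpa3 lie above 2 on both sides, and most other genes lie below 0.

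HuR is known to bind U-rich stretches, so the 3′ untranslated regions of the members were read from GENCODE M39 transcripts on GRCm39, a build also named in the submitters' processing notes. For 42 members with a region of at least 50 bases, the median share of U was 29.1%, against 29.2% over 10980 coding genes, and 78.6% held UUUUU at least once, against 81.2%. The pentamer AUUUA was in 69% of the members' regions and in 73.5% of all. The members' regions were shorter, with a median of 743 bases against 1354, and the shares with UUUUU or AUUUA were not corrected for length. Runs of UUUUU were densest in Rpa3, at 30.6 per kb (overlapping runs counted), then in Rrm2 at 24.1, Mcm7 at 22.1 and Orc6 at 15.8. The 30 bases richest in U are given for the 3 members with the highest recovery against IgG, for the 5 members with the lowest recovery over RNA in DMSO, and for Mcm5, whose stretch holds the most U of the 43 and which was low in RIP. Capitals mark U.
Rpa3 (chr6:8256035-8256064, minus strand): aUUUgUUcUUUUaUaUaUaUaUaUUUUUUU
Orc6 (chr8:86034619-86034648, plus strand): UUUUaUUUggUUUUgUggUUUUUUaaaUUU
Rrm2 (chr12:24763706-24763735, plus strand): UcUaUgcUUUUUUUUUUUUUUUUUaaUgcU
Rfc4 (chr16:22932657-22932686, minus strand): UacaaUUUUaUUUaacaUUcaaacUUcaUU
Mcm6 (chr1:128259435-128259464, minus strand): UcaUgUUgUUUcUaUaagacaUUUcUUcaU
Lig1 (chr7:13045313-13045342, plus strand): UgcUUUaUUUUcUUcaaUaaaUgacUUcUU
Mcm3 (chr1:20872512-20872541, minus strand): UUcUaUUUUUUcUaUgUaccaUaUUUUUgU
Pcna (chr2:132091361-132091390, minus strand): UacUUUcUUUUcUcUccaUUcUccaUaaUU
Mcm5 (chr8:75854911-75854940, plus strand): UUUgcUUUUUUUUUUUUUUUUUUUUagUUU
These hold 21 U in Rpa3, 21 in Orc6 and 22 in Rrm2, and 14 in Rfc4, 15 in Mcm6, 16 in Lig1, 19 in Mcm3 and 16 in Pcna. The richest stretches of Tyms (25 U), Rfc2 and Rfc5 (23 each) and Cdc6, Orc1, Pole2 and Fen1 (21 each), none of them called higher in RIP over RNA, hold as many U as those of Rpa3 and Orc6 or more. Mcm5 holds 26 and was at -1.73 in RIP over RNA from DMSO. Mcm7, also among the densest in UUUUU, was at -1.63. Across the 42 members, UUUUU per kb and RIP over RNA in DMSO had a Pearson's r of 0.62 and a Spearman's rho of 0.38. Over the 10980 coding genes these were 0.35 and 0.44. Spearman's rho with RIP over RNA was 0.07 for the share of U in the members and 0.27 in the coding genes. For the length of the region it was 0.11 and 0.37, and for transcript length -0.10 and 0.31. These are descriptions across genes of the same libraries, and the length of the region varies. Rpa3, Orc6 and Rrm2 are at the high end of both UUUUU per kb and RIP over RNA.

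Whether treatment changed the recovery was tested as an interaction. For LPS against DMSO none of the 43 was called in edgeR's quasi-likelihood test, against 0.0419% of all 14311 genes called in either direction, and 7 members had an unadjusted p under 0.05. DESeq2 also called none, with 7 at an unadjusted p under 0.05. The median change was 0.30 on the log2 scale, against 0.02 over all genes, and 36 of 43 were positive, with Pold2, Mcm7 and Cdt1 highest at 0.80 ± 0.23, 0.72 ± 0.29 and 0.69 ± 0.25 (SE, FDR 0.325, 0.621 and 0.547). For LPS+TM7nox against LPS, again no member was called by edgeR or DESeq2, against 0.00699% of all genes, and 3 had an unadjusted p under 0.05 in edgeR and 2 in DESeq2. The share of all genes with such an unadjusted p was counted in neither interaction. The median was -0.05, and the values ran from -0.63 ± 0.23 for Pold2 to 0.84 ± 0.40 for Cdc6 (SE, FDR 0.871 and 0.871). A p above the threshold does not show that recovery stayed the same, and the standard errors of single genes in these tests ran from 0.20 for Pold3 to 0.64 for Fen1. In simulated data, the interaction test for LPS against DMSO recovered only 23% of 2-fold changes.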

How the data were processed

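The authors deposited 1 table of raw read counts per Ensembl gene, in which 27 libraries were each matched to a sample by the labels. The deposited counts are whole numbers with no normalization. The submitters' processing notes name GRCm39, FastQC 0.11.9, STAR, HTSeq and DESeq2. Neither the annotation release nor the strand setting of the counting is given in the sources used here. Per the labels' protocols, 7 ng of RNA went into each library, prepared with Takara's SMART-Seq Stranded kit. No molecular identifiers are stated, so PCR copies count separately.

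Tests on these counts used edgeR 4.0.16 under R 4.3.3 (TMM scaling, quasi-likelihood F tests, two-sided, filterByExpr with a minimum count of 10, Benjamini-Hochberg adjustment over all genes tested, FDR threshold 0.05). Separate fits covered the 12 RNA libraries, the 12 RIP libraries, the 24 of both kinds, and the 15 of RIP and IgG, the last with treatment as a covariate. The standard error is the size of the log2 fold change divided by the square root of F. The tests were tried on simulated data. Changes of 2-fold were recovered for 53% of changed genes in RNA and 38% in RIP for LPS against DMSO. Against IgG the share was 46%, and for the interaction of LPS with the assay it was 23%. At 4-fold these shares were 85, 90, 78 and 66%, with 1 to 8 false calls. DESeq2 1.42.0, other scaling, no filter, a replicate block, leaving out each library, and replicates 1 and 2 or 3 and 4 alone were alternatives. Same-numbered libraries deviated together, with correlations of 0.31 to 0.75 over 8610 genes in 9 comparisons, so the numbers pair the samples. Replicates of a group always differed by more than sampling noise. For a comparison, up to 10 called members per direction have full statistics, and up to 3 have values per library. The value of 1 gene that this rule would name from the other lists is not reported here. Members, lists and tests were chosen with earlier results of these data known. Coordinates are from GENCODE M39 (GRCm39), and promoters from RefSeq (GRCm38.p6).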

Additional observations from a re-analysis of the deposited data

Results flagged for a closer look

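In 264 groups of 4 libraries (each member, and the members summed, in each RNA and RIP group), the highest or lowest library was compared with the others by the ratio of its gap to the whole range, and 15 had a ratio above Dixon's critical value for 4 samples. Chance alone flags about 1 in 20 such groups. In total RNA, Cdc6 in LPS was 12.02 CPM in replicate 1 against 4.35 to 5.24 CPM in the others. Mcm6 in DMSO was 157 CPM in replicate 1, the shallow library, against 192 to 197 CPM. Cdc45 in LPS was 8.45 CPM in replicate 3 against 10.8 to 11.1 CPM, and Fen1 in LPS was 2.06 CPM in replicate 3 against 1.13 to 1.28 CPM. Rpa3 in LPS was 7.21 CPM in replicate 4 against 6.20 to 6.25 CPM. In LPS+TM7nox replicate 1, Gins4 was high at 27.4 CPM against 15.2 to 16.7 CPM, and Pold3 was low at 19.4 CPM against 25.1 to 26.1 CPM.

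In RIP, replicate 4 of LPS+TM7nox was low for Mcm6 at 14.2 CPM against 24.1 to 25.4 CPM, for Rfc5 at 7.74 CPM against 16.1 to 16.6 CPM, and for all members summed at 403 CPM against 534 to 560.4 CPM. Replicate 3 of the same group was high for Mcm3 at 22.6 CPM against 13.3 to 14.7 CPM and low for Pole2 at 1.04 CPM against 1.35 to 1.40 CPM. Rfc2 was 11.2 CPM in replicate 2 against 8.92 to 9.23 CPM. Rpa2 in DMSO was 6.19 CPM in replicate 2 against 8.39 to 8.71 CPM, and Prim1 in LPS was 5.27 CPM in replicate 1 against 3.20 to 3.53 CPM.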

How the results depend on the processing

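Calls of members in LPS or LPS+TM7nox against DMSO, in RIP over RNA and against IgG stayed within 1.5 times the reported count under every alternative tried, except that replicates 1 and 2 alone gave 22 called members for LPS against DMSO in RNA and 20 in RIP. For LPS+TM7nox against LPS in RNA, the reported 7 became 15 with the replicate block, 0 with replicates 1 and 2 alone (12 at an unadjusted p under 0.05) and 22 with replicates 3 and 4 alone, and ranged from 2 to 10 when single libraries were left out. The same comparison in RIP gave 20 with the replicate block against the reported 13, 1 with replicates 1 and 2 alone and 4 with replicates 3 and 4 alone, and 4 to 14 when single libraries were left out. The other comparisons kept their counts within 1.5 times under the replicate block, where up to 3 members a comparison passed the threshold, Rrm2 in RIP over RNA in DMSO from the highest FDR without the block (0.303 to 0.0389). Leaving out libraries gave 38 to 39 calls for LPS against DMSO in RNA and 27 to 33 in RIP. No member that was called under either setting changed sign. The cause of these differences was not tested.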
